A study of Mus musculus with 12 samples.

Results

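The genes described here are 33 genes of the mouse endoplasmic reticulum (ER): protein-folding chaperones and disulfide isomerases, the machinery that degrades misfolded ER proteins, the translocon, and the sensors and effectors of the unfolded protein response. They were matched by name from a list that was drawn up with earlier results of these data known, and the rule for membership uses no measured value. All 33 were found by Ensembl identifier among the 55487 genes of the count table, and all 33 passed the filter on low counts, as did 14509 genes in all.

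RNA sequencing was done on SCC7 cells, a mouse squamous carcinoma line given as wild type (WT), kept for 24 h in medium conditioned by macrophages derived from mouse bone marrow. The macrophages had been kept for 24 h with INF-γ at 20 ng/ml, read here as interferon-gamma, for M1 CM. They had been kept with IL-4 (interleukin-4) at 20 ng/ml for M2 CM, in a mixture holding 75% SCC7-conditioned medium for TAM CM, or in plain DMEM for M0 CM. Each medium had 3 libraries, 12 in all, with totals of 18996937 to 22596630 counts. All 4 groups received macrophage medium, so M0 CM is a control for the macrophages' treatment and not for macrophage medium as such. The sources used here do not say whether cytokine or SCC7 medium was carried over into the conditioned medium. Nothing in the labels says whether the 3 libraries of a medium are separate cultures. The p-values therefore describe the spread among these libraries, which could be technical.

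The ER folds secreted and membrane proteins, and 3 sensors in its membrane respond when unfolded protein builds up. IRE1 (gene Ern1) splices the mRNA of the transcription factor XBP1. ATF6 is cut in the Golgi and its freed part acts as a transcription factor. PERK (Eif2ak3) phosphorylates the translation factor eIF2alpha, which lowers protein synthesis and raises translation of the transcription factor ATF4. ATF6 and XBP1 drive chaperone and degradation genes, many of them through ER stress response elements in their promoters. Total counts per gene do not show splicing of Xbp1, cutting of ATF6 or phosphorylation by PERK, so every value below is an mRNA level.

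A classical ER stress response element (ERSE) reads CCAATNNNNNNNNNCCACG, and a shorter form (ERSE-II) reads ATTGGNCCACG. Both strands were searched from 250 bases before to 50 bases after the RefSeq start of each gene (GRCm38.p6, which is mm10), a window that was given for 27 of the 33 members. ERSE was found in 9 of the 27 (33.3%), against 37 of 27025 genes with such a window (0.137%). The 27025 include the members, which were listed by their known roles, so no support is drawn from this difference. ERSE-II was found in 2 of the 27, Dnajb11 and Herpud1, against 0.0444% of genes. The Dnajb11 site lies 7 to 17 bases after the start and is not listed below. The XBP1-type element TGACGTGG was found in 0 of the 27 and in 0.714% of genes, and the ATF4-type element TGATGNAA in 1 of the 27, Herpud1, and in 4.51% of genes. The sites are shown because members that share the element went in different directions across the media. Capitals mark the fixed letters, and each site is written in the direction of the motif. No sites of different elements overlapped.
Hspa5 ERSE, 65 to 47 bases before the start: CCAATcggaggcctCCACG
Hsp90b1 ERSE, 212 to 194 bases before the start: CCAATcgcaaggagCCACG
Hsp90b1 ERSE on the opposite strand, 107 to 89 bases before the start: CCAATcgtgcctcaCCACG
Calr ERSE on the opposite strand, 162 to 144 bases before the start: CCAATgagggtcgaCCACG
Canx ERSE, 145 to 127 bases before the start: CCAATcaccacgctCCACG
Dnajc3 ERSE, 105 to 87 bases before the start: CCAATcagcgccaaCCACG
Creld2 ERSE on the opposite strand, 126 to 108 bases before the start: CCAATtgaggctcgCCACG
Pdia6 ERSE, 98 to 80 bases before the start: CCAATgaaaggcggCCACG
Syvn1 ERSE, 44 to 26 bases before the start: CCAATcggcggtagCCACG
Derl3 ERSE on the opposite strand, 156 to 138 bases before the start: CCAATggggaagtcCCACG
Herpud1 ERSE-II, 52 to 42 bases before the start: ATTGGgCCACG

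Upstream sequence is shown for 3 members, each read 5′ to 3′ along the gene's strand and ending at its start or, for Hsp90b1, at the start that GENCODE gives. Herpud1 carries ERSE-II and, reversed, the ATF4-type element. Hsp90b1 carries ERSE on both strands. For Hspa5, GENCODE places the start 120 bases farther upstream than RefSeq, so only its site is shown. Ppp1r15a had the largest fold of all members and held none of the 4 elements in this window.
Herpud1, chr8:94386179-94386428, + strand: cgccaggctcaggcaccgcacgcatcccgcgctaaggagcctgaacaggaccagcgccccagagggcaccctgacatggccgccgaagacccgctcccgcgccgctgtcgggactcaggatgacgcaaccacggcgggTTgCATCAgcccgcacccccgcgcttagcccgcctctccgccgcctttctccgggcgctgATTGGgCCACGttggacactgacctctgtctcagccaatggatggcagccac
Hsp90b1, chr10:86705510-86705694, - strand: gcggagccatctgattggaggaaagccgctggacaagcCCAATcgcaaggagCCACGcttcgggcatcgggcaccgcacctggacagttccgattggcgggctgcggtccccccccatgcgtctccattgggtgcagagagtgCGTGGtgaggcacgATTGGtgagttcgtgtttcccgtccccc
Ppp1r15a, chr7:45526269-45526518, - strand: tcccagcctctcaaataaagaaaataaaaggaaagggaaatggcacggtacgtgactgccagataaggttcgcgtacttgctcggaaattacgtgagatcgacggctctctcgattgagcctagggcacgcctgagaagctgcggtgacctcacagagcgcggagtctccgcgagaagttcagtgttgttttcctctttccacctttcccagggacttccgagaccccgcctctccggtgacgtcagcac
A match describes letters only, and no match says only that these letters are not in this window.

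Levels below are CPM, read counts scaled to library size with TMM factors, and folds, their standard errors (SE) and adjusted p-values come from edgeR's quasi-likelihood test, adjusted over all 14509 genes. A gene is said to rise or fall when its adjusted p is under 0.05. Of the cell markers read beside the members, 4 of the 8 epithelial ones were close to absent: the keratins Krt5 and Krt14, which mark squamous epithelium, and the adhesion genes Cdh1 and Epcam lay under 0.1 CPM in every medium, while Krt8 and Krt18 were present and the collagen gene Col1a2 was high. Trp63, a squamous transcription factor, averaged 0.124 CPM in M1 CM, 1.07 in M2 CM, 0.364 in TAM CM and 1.79 in M0 CM, and Dsp, a desmosome gene, 0.633, 0.910, 0.242 and 1.55 CPM in the same media. The summed epithelial list averaged 168 CPM in M1 CM, 719 in M2 CM, 95.7 in TAM CM and 375 in M0 CM. The summed fibroblast list, mostly collagens, averaged 1452, 1474 and 1153 CPM in M1 CM, M2 CM and TAM CM and 2523 CPM in M0 CM. Its members outside the collagens did not share that order. Pdgfra averaged 263 CPM in M1 CM, 168 in M2 CM, 319.7 in TAM CM and 236 in M0 CM. Dcn averaged 12.5, 4.10, 16.9 and 2.82 CPM in the same media, and Lum and Thy1 had 0 counts. The part of these shifts in the values of the members was not tested. The macrophage list summed to 34.9 to 40.7 CPM in M1 CM, 22.7 to 25.1 in M2 CM, 41.7 to 51.0 in TAM CM and 23.3 to 24.5 in M0 CM. Most of that was Cd14, while Ptprc, Adgre1 and Itgam lay under 0.1 CPM and C1qa and C1qb had 0 counts. Cd68 averaged 6.99 CPM in M1 CM, 5.03 in M2 CM, 2.89 in TAM CM and 3.89 in M0 CM, and was thus lowest where Cd14 was highest. Mrc1 averaged 2.60, 1.90, 0.725 and 0.681 CPM in the same media. Lyz2 averaged 0.422, 0.416, 1.31 and 0.831 CPM, Aif1 and Csf1r at most 1.00 and 0.525, and Fcgr1 at most 0.134. The label of the third library of M2 CM gives a melanoma as its cell type. Of the 7 melanocyte markers, Mlana, Tyr, Dct, Tyrp1 and Sox10 lay under 0.1 CPM in every medium. Mitf averaged 11.0 CPM in M1 CM, 6.37 in M2 CM, 11.7 in TAM CM and 7.91 in M0 CM, and Pmel 0.213, 0.177, 0.0672 and 0.265 CPM in the same media. Without that library the counts of members called against TAM CM and M1 CM stayed at 28 and 27. In bulk RNA, fewer cells of a type and less RNA per cell cannot be told apart.

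In TAM CM a subset of the 33 genes rose strongly, led by Ppp1r15a, Herpud1, Wfs1 and Dnajb9, while most isomerases and several co-chaperones fell. In M2 CM 10 of 11 chaperones and 4 of 5 isomerases rose, by at most 1.44-fold, while 2 of 8 degradation genes passed the test. In M1 CM the pattern was the opposite for chaperones: 8 of 11 fell, while 4 of 6 sensors and effectors and 4 of 8 degradation genes rose. The shares of all genes that rose or fell, given below for each comparison, are to be read beside every count by role. Of the 33 members, 32 differed among the 4 media (97.0%), against 83.5% of all genes tested, and the exception was Derl2 (adjusted p = 0.137, edgeR quasi-likelihood test).

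**Figure D1:**
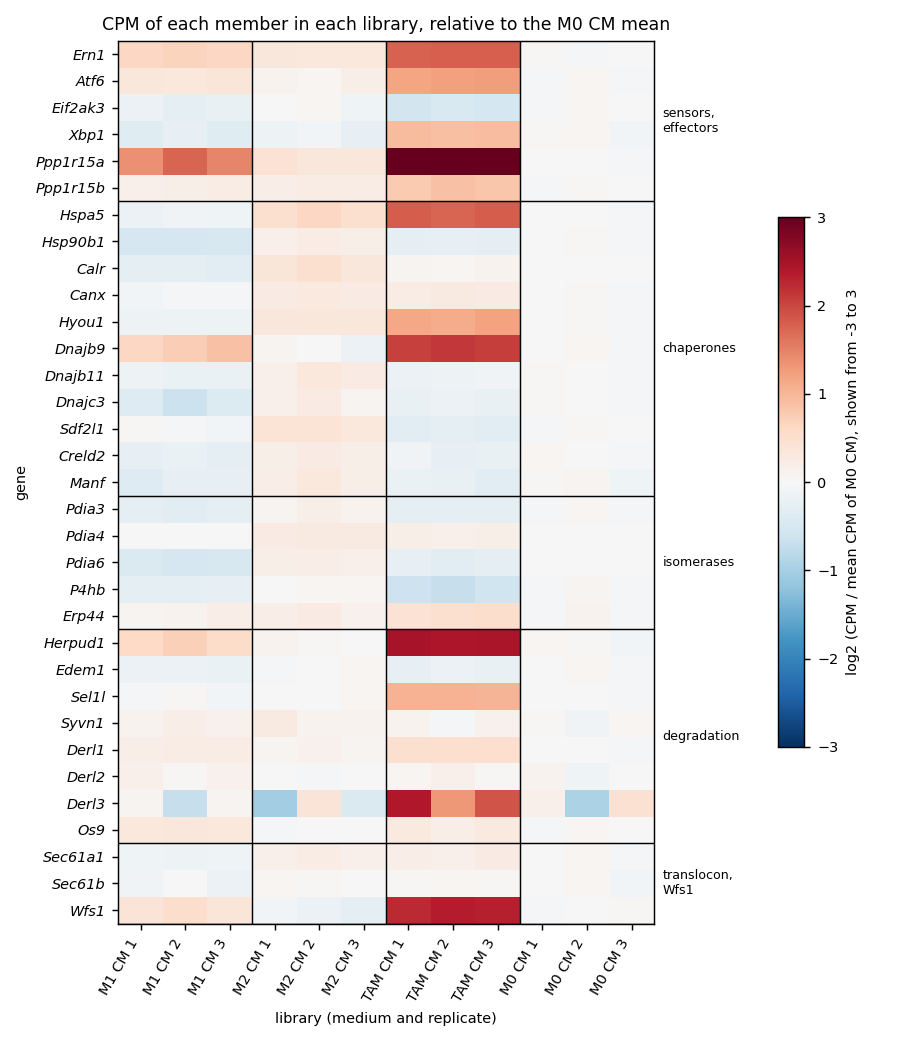
Level of each of the 33 genes (rows, grouped by role) in each of the 12 libraries (columns), as log2 of CPM over the mean CPM of M0 CM, with colours ending at -3 and 3. The 3 libraries of a medium look alike except for Derl3, and TAM CM holds the deepest reds.

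In TAM CM against M0 CM, 19 members rose and 11 fell. The test called 70.0% of all genes in this comparison, 35.1% higher and 34.9% lower. The median log2 fold change of the members was 0.20, against 0.00 for all genes. The groups did not overlap for 30 of the 33, as was so for 73.1% of all genes. A fold of at least 2 was reached upwards by 10 members (9.07% of all genes) and downwards by 0 (9.93% of all genes). Derl3 is among the 10, and it passed the filter on low counts only through TAM CM. In M2 CM against M0 CM, 21 members rose and 1 fell, where 39.4% of all genes were called, 21.0% higher and 18.5% lower. The median log2 fold change of the members was 0.16 and that of all genes -0.00, and 0 members reached 2-fold, where 1.52% of all genes rose and 1.73% fell by that much. The groups did not overlap for 23 members, as for 49.5% of all genes. Without the third M2 CM library, 20 rose and 1 fell. In M1 CM against M0 CM, 11 rose and 15 fell, where 53.4% of all genes were called, 27.7% higher and 25.6% lower. The median was -0.08, against 0.01 for all genes, and Ppp1r15a alone reached 2-fold, where 5.87% of all genes rose and 2.68% fell by that much. The groups did not overlap for 26 members, as for 58.8% of all genes. The 3 comparisons share the M0 CM libraries, so they are not independent of each other. The split over all genes rests on the scaling: with library sizes alone it was 3219 higher and 4626 lower in M1 CM, beside 4023 and 3719 with TMM, and 2201 higher and 3653 lower in M2 CM, beside 3042 and 2681.

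**Figure D2:**
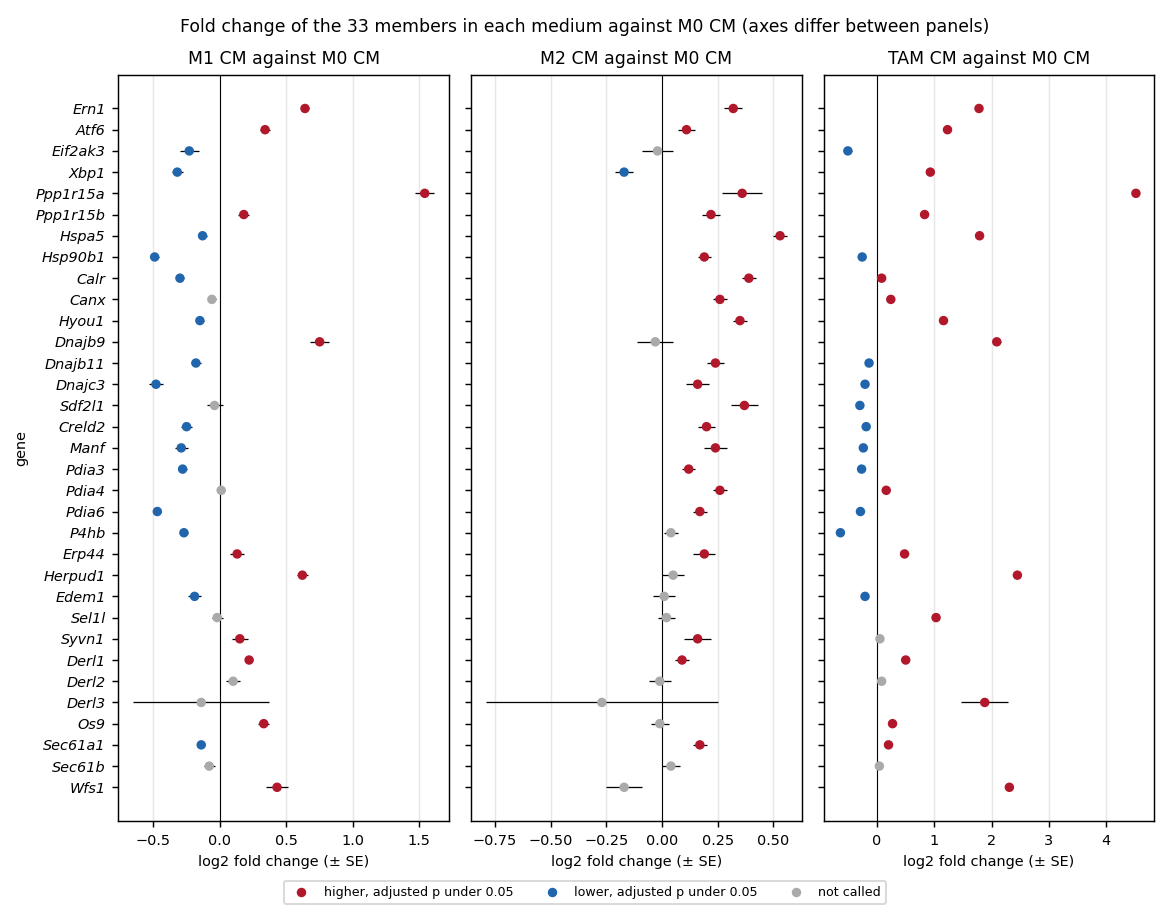
Log2 fold change with its SE for each of the 33 genes in M1 CM, M2 CM and TAM CM, each against M0 CM, on horizontal axes that differ between panels. Chaperones and isomerases lie mostly left of 0 in M1 CM and right of 0 in M2 CM, and in TAM CM they split, with Ppp1r15a farthest right at 4.52.

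The sensors themselves moved at the mRNA level. Ern1, which encodes IRE1, had 345, 355 and 352 CPM in TAM CM, 157, 161 and 158 CPM in M1 CM, 129, 128 and 126 CPM in M2 CM, and 104, 99.8 and 102 CPM in M0 CM. No group overlapped another, and each medium stood above M0 CM. The rise was 3.44-fold in TAM CM (log2 1.78, SE 0.03, adjusted p = 8.21e-41), 1.56-fold in M1 CM and 1.25-fold in M2 CM. Atf6 followed the same order, with 173, 177 and 182 CPM in TAM CM, 95.2, 94.8 and 97.5 CPM in M1 CM, 81.4, 79.2 and 85.1 CPM in M2 CM, and 74.0, 78.8 and 74.4 CPM in M0 CM. Its rise was 2.34-fold in TAM CM (log2 1.23, SE 0.04, adjusted p = 1.14e-31) and 1.27-fold in M1 CM. In M2 CM it was 1.08-fold (adjusted p = 0.0223), and this call was lost with library sizes alone, with no filter, with the DESeq2 Wald test and without the first or the third M0 CM library or the third M2 CM library.

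Eif2ak3, which encodes PERK, went the other way. It had 21.1, 22.4 and 21.3 CPM in TAM CM, 27.2, 25.3 and 26.2 CPM in M1 CM, 30.8, 32.3 and 28.0 CPM in M2 CM, and 29.5, 32.2 and 30.7 CPM in M0 CM. TAM CM and M1 CM lay wholly below M0 CM, and M2 CM overlapped it. The log2 fold change was -0.51 in TAM CM (SE 0.07, adjusted p = 5.1e-09), -0.23 in M1 CM (adjusted p = 0.00315) and -0.02 in M2 CM (adjusted p = 0.838). Of the 3 sensor mRNAs, IRE1 and ATF6 rose in TAM CM and that of PERK fell.

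Xbp1, the transcription factor made active by IRE1, rose in TAM CM and fell in the other media. Its values were 161, 155 and 157 CPM in TAM CM, 64.9, 69.4 and 64.9 CPM in M1 CM, 74.0, 77.8 and 70.0 CPM in M2 CM, and 84.6, 86.1 and 77.9 CPM in M0 CM. TAM CM stood above all other libraries and M1 CM below the other media. The log2 fold change was 0.93 in TAM CM (SE 0.04, adjusted p = 3.26e-25), -0.32 in M1 CM (adjusted p = 2.87e-08) and -0.17 in M2 CM (adjusted p = 0.00214). In M2 CM it was thus the single member that fell.

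Ppp1r15a (ENSMUSG00000040435, chromosome 7, 45522916 to 45526268 in mm10), which encodes GADD34, the stress-induced partner of the phosphatase that reverses eIF2alpha phosphorylation, had the largest fold of any member. It had 342, 348 and 342 CPM in TAM CM, 38.9, 50.5 and 41.6 CPM in M1 CM, 20.2, 18.9 and 18.9 CPM in M2 CM, and 15.2, 15.2 and 14.6 CPM in M0 CM. The 4 groups did not overlap. It rose 22.9-fold in TAM CM (log2 4.52, SE 0.06, adjusted p = 5.38e-27), 2.90-fold in M1 CM and 1.29-fold in M2 CM (adjusted p = 0.00133). Ppp1r15b, the constitutive partner of the same phosphatase, moved less, with 215, 231 and 223 CPM in TAM CM, 139.6, 141 and 145 CPM in M1 CM, 144, 147 and 147 CPM in M2 CM, and 120.4, 129 and 126 CPM in M0 CM. It rose in all 3 media, 1.78-fold in TAM CM, 1.13-fold in M1 CM and 1.16-fold in M2 CM. The span of Ppp1r15a overlaps Tulp2 on the opposite strand, and the sources used here do not give the strand setting of the counting.

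**Figure D3:**
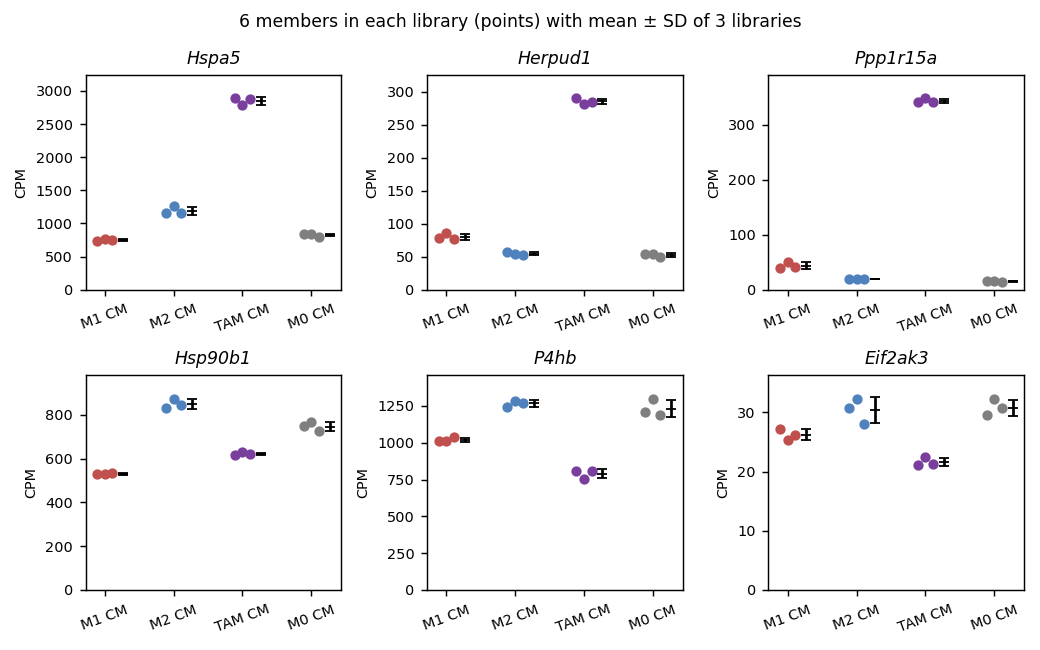
CPM of 6 of the genes in each library (points), with the mean and SD of 3 libraries beside them, for M1 CM, M2 CM, TAM CM and M0 CM, on linear axes from 0. Hspa5, Herpud1 and Ppp1r15a are highest in TAM CM, while Hsp90b1, P4hb and Eif2ak3 are lower in TAM CM than in M0 CM.

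The chaperones split in TAM CM. Hspa5 (ENSMUSG00000026864, chromosome 2, 34771970 to 34777547 in mm10) encodes BiP, the main ER chaperone of the HSP70 family and a brake on all 3 sensors. It had 2886, 2781 and 2879 CPM in TAM CM, 733, 768 and 747 CPM in M1 CM, 1154, 1256 and 1152 CPM in M2 CM, and 833, 834 and 801 CPM in M0 CM. No group overlapped another. It rose 3.46-fold in TAM CM (log2 1.79, SE 0.03, adjusted p = 3.67e-42) and 1.44-fold in M2 CM (log2 0.53, adjusted p = 1.08e-19), and it fell in M1 CM (log2 -0.13, adjusted p = 0.000260). Hyou1, a nucleotide exchange factor that serves BiP, had 396, 387 and 411 CPM in TAM CM, 159.6, 161 and 160.0 CPM in M1 CM, 227, 227 and 224 CPM in M2 CM, and 177, 183 and 173 CPM in M0 CM. It rose 2.24-fold in TAM CM and 1.27-fold in M2 CM, and fell in M1 CM (log2 -0.15, adjusted p = 0.000207). Its order over the media was that of Hspa5.

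Dnajb9 (ERdj4), a co-chaperone that helps BiP bind IRE1, had 68.2, 71.7 and 69.2 CPM in TAM CM, 25.2, 27.4 and 30.2 CPM in M1 CM, 17.4, 16.4 and 14.5 CPM in M2 CM, and 16.5, 17.0 and 15.8 CPM in M0 CM. It rose 4.25-fold in TAM CM (log2 2.09, SE 0.07, adjusted p = 1.58e-31) and 1.68-fold in M1 CM, where it was the single chaperone that rose. Its M2 CM libraries overlapped those of M0 CM (log2 -0.03, adjusted p = 0.827), while 10 of the other chaperones rose there.

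Hsp90b1, which encodes the ER form of HSP90, GRP94, carries ERSE like Hspa5 but did not follow it in TAM CM. It had 617, 628 and 620.3 CPM in TAM CM, 528, 528 and 533 CPM in M1 CM, 829, 873 and 846 CPM in M2 CM, and 747, 765 and 726 CPM in M0 CM. The 4 groups were apart, with M2 CM at the top and M1 CM at the bottom. It fell in TAM CM (log2 -0.26, SE 0.03, adjusted p = 4.11e-11) and in M1 CM (log2 -0.49, adjusted p = 5.8e-20) and rose in M2 CM (log2 0.19, adjusted p = 7.27e-07).

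Calr and Canx encode calreticulin and calnexin, lectin chaperones that hold glycoproteins while they fold. Calr had 947, 936 and 964 CPM in TAM CM, 749, 728 and 714 CPM in M1 CM, 1157, 1256 and 1130.3 CPM in M2 CM, and 886, 904 and 907 CPM in M0 CM. It rose 1.31-fold in M2 CM and fell in M1 CM (log2 -0.30, adjusted p = 1.63e-11). In TAM CM its log2 fold change was 0.08 (adjusted p = 0.0252), and with library sizes alone it was -0.02 (adjusted p = 0.567), so the direction rests on the scaling. Without the first M0 CM library or the third TAM CM library it was 0.07, with adjusted p = 0.105 and 0.100. Canx averaged 803 ± 12.7 CPM in TAM CM, 649 ± 9.33 CPM in M1 CM, 811 ± 12.7 CPM in M2 CM and 678 ± 15.0 CPM in M0 CM (SD, n = 3). It rose 1.18-fold in TAM CM and 1.20-fold in M2 CM, and in M1 CM its adjusted p was 0.0660.

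The remaining co-chaperones shared 1 pattern. Dnajb11 (ERdj3, a BiP co-chaperone), Dnajc3 (p58IPK, a BiP co-chaperone that also inhibits PERK), Creld2 and Manf (both ER proteins released under stress) fell in TAM CM, fell in M1 CM and rose in M2 CM. Dnajc3 had 53.8, 55.6 and 53.6 CPM in TAM CM, 47.9, 40.4 and 47.4 CPM in M1 CM, 69.7, 74.1 and 67.1 CPM in M2 CM, and 64.5, 63.5 and 60.9 CPM in M0 CM. Its log2 fold change was -0.21 in TAM CM (adjusted p = 0.000390), -0.48 in M1 CM (adjusted p = 1.01e-10) and 0.16 in M2 CM (adjusted p = 0.0108). The M2 CM call was lost with library sizes alone and without the third M0 CM library or the second M2 CM library. Sdf2l1, part of a BiP complex with Dnajb11, had 27.6, 28.0 and 27.7 CPM in TAM CM, 35.0, 32.9 and 32.2 CPM in M1 CM, 45.3, 45.5 and 42.5 CPM in M2 CM, and 33.2, 34.9 and 34.8 CPM in M0 CM. It fell in TAM CM (log2 -0.30, adjusted p = 1.53e-05) and rose 1.30-fold in M2 CM, and its M1 CM and M0 CM libraries overlapped. The span of Manf overlaps Rbm15b on the same strand and Dcaf1 on the other, so its counts are less certain than the rest.

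By count, 5 of the 11 chaperones rose and 6 fell in TAM CM, 1 rose and 8 fell in M1 CM, and 10 rose and 0 fell in M2 CM. For all genes these shares were 35.1% and 34.9% in TAM CM, 27.7% and 25.6% in M1 CM, and 21.0% and 18.5% in M2 CM. Their summed level was 6008 ± 63.0 CPM in TAM CM, 3155 ± 19.9 CPM in M1 CM, 4699 ± 174 CPM in M2 CM and 3706 ± 66.2 CPM in M0 CM (SD, n = 3). Hspa5 alone averaged 2849 ± 58.8 CPM in TAM CM against 1187 ± 59.5 CPM in M2 CM and 823 ± 19.1 CPM in M0 CM. In TAM CM against M2 CM, 3 of the 11 chaperones were higher and 7 lower, so the top place of TAM CM in the sum leans on Hspa5. All 33 members summed to 10733 ± 109 CPM in TAM CM against 7690.1 ± 172 CPM in M0 CM, and without Hspa5 to 7884 ± 56.7 CPM in TAM CM against 6867 ± 158 CPM in M0 CM. In M2 CM the 32 others summed to 7788 ± 184 CPM and in M1 CM to 6082 ± 1.37 CPM.

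**Figure D4:**
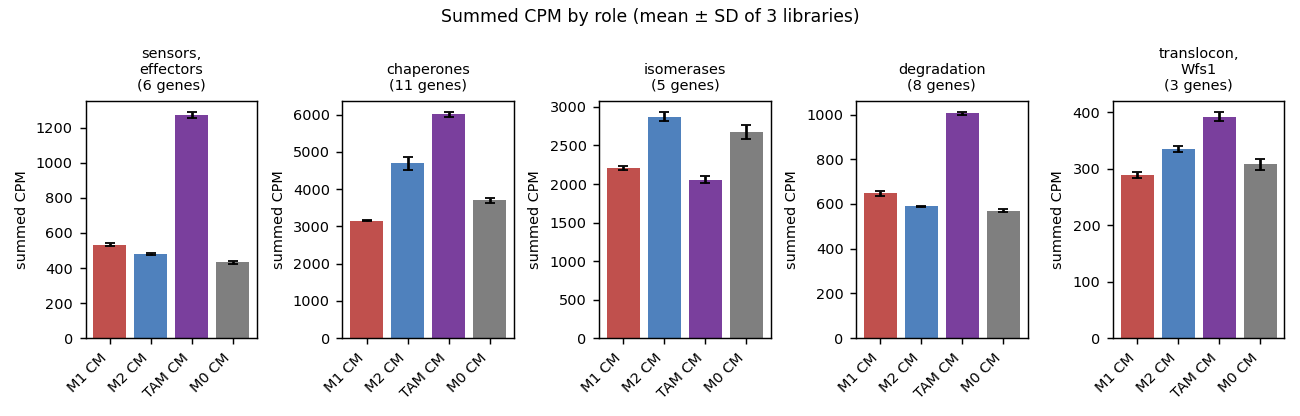
Summed CPM of the genes of each role (bars, mean of 3 libraries; whiskers, SD) in M1 CM, M2 CM, TAM CM and M0 CM, each panel on its own axis from 0. Sensors, chaperones and degradation genes are highest in TAM CM, at 1274, 6008 and 1005 CPM, and isomerases are lowest there, at 2054 CPM. The chaperone sum includes Hspa5, at 2849 CPM in TAM CM and 1187 CPM in M2 CM.

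Disulfide isomerases, which form and shuffle the disulfide bonds of folding proteins, were lowest as a sum in TAM CM, at 2054 ± 45.7 CPM, against 2675 ± 88.1 CPM in M0 CM (SD, n = 3). They stood at 2207 ± 26.3 CPM in M1 CM and 2873 ± 60.3 CPM in M2 CM. Of the 5, 2 rose and 3 fell in TAM CM, 1 rose and 3 fell in M1 CM, and 4 rose and 0 fell in M2 CM. Among all genes 35.1% rose and 34.9% fell in TAM CM, 27.7% and 25.6% in M1 CM, and 21.0% and 18.5% in M2 CM. P4hb, which encodes protein disulfide isomerase itself and also serves as a subunit of collagen prolyl hydroxylase, had 806, 757 and 808 CPM in TAM CM, 1015, 1011 and 1036 CPM in M1 CM, 1243, 1286 and 1273 CPM in M2 CM, and 1209.9, 1299 and 1188 CPM in M0 CM. It had the largest fall of all members in TAM CM (log2 -0.64, SE 0.03, adjusted p = 7.45e-24), and it fell in M1 CM (log2 -0.27, adjusted p = 1.71e-10). In M2 CM it overlapped M0 CM (adjusted p = 0.319).

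Pdia6 had 363, 340.0 and 354 CPM in TAM CM, 319, 306 and 307 CPM in M1 CM, 485, 493 and 480.1 CPM in M2 CM, and 437, 427 and 429 CPM in M0 CM. It fell in TAM CM (log2 -0.29, adjusted p = 1.03e-11) and in M1 CM (log2 -0.47, adjusted p = 2.66e-18), and it rose 1.13-fold in M2 CM. Pdia3 (ERp57), the isomerase that works with calnexin and calreticulin, averaged 664 ± 4.57 CPM in TAM CM, 660.1 ± 12.5 CPM in M1 CM, 872 ± 32.6 CPM in M2 CM and 802 ± 31.7 CPM in M0 CM (SD, n = 3), with the same directions as Pdia6. Its rise in M2 CM was lost with library sizes alone, where the log2 fold change was 0.07. Pdia4 and Erp44, a retention factor for proteins in the early secretory pathway, rose in TAM CM by small folds, 1.12-fold for Pdia4 and 1.39-fold for Erp44. The call for Pdia4 was lost with library sizes alone, where the log2 fold change was 0.06. Erp44 was the single isomerase that rose in M1 CM (log2 0.13, adjusted p = 0.0269). That call was lost with library sizes alone, with the DESeq2 Wald test and without the first or the third M0 CM library or the third M1 CM library.

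Genes of ER-associated degradation, by which misfolded proteins are drawn back to the cytosol and destroyed, summed to 1005 ± 5.92 CPM in TAM CM, 647 ± 10.2 CPM in M1 CM, 589 ± 2.00 CPM in M2 CM and 569 ± 7.07 CPM in M0 CM. In TAM CM 5 of 8 rose and 1 fell, in M1 CM 4 rose and 1 fell, and in M2 CM 2 rose and 0 fell. The shares of all genes were 35.1% and 34.9% in TAM CM, 27.7% and 25.6% in M1 CM, and 21.0% and 18.5% in M2 CM. Derl3, described below, is among the 5 in TAM CM. Herpud1 (ENSMUSG00000031770, chromosome 8, 94386438 to 94395377 in mm10) encodes a membrane protein that organises the degradation complex. It had 289.9, 282 and 285 CPM in TAM CM, 79.1, 85.6 and 76.3 CPM in M1 CM, 56.8, 53.8 and 52.4 CPM in M2 CM, and 54.2, 53.5 and 49.4 CPM in M0 CM. It rose 5.45-fold in TAM CM (log2 2.45, SE 0.04, adjusted p = 1.55e-42) and 1.53-fold in M1 CM, and M2 CM overlapped M0 CM (adjusted p = 0.394).

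The ubiquitin ligase core of this pathway is HRD1 (Syvn1) with its partner SEL1L, which are described in turn. Sel1l had 225, 226 and 224 CPM in TAM CM, 108, 113 and 104 CPM in M1 CM, 109, 111 and 115 CPM in M2 CM, and 110.2, 111 and 108 CPM in M0 CM. It rose 2.05-fold in TAM CM (log2 1.03, SE 0.04, adjusted p = 5.9e-30), and the other 3 media overlapped. Syvn1 averaged 47.1 ± 3.35 CPM in TAM CM and 45.3 ± 2.50 CPM in M0 CM, with overlap (log2 0.05, adjusted p = 0.410). Its log2 fold change was 0.15 in M1 CM (adjusted p = 0.0240) and 0.16 in M2 CM (adjusted p = 0.0197). Both calls were lost with library sizes alone, with the DESeq2 Wald test and without the second M0 CM library. The M1 CM call was also lost without the second M1 CM library and the M2 CM call without the first M2 CM library.

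The derlins, which help form the exit channel, did not move as a family. Derl1 rose in all 3 media, 1.42-fold in TAM CM, 1.16-fold in M1 CM and 1.07-fold in M2 CM, though the last call (adjusted p = 0.0238) was lost with library sizes alone, with no filter, and without the third M0 CM library or the second M2 CM library. Derl2 averaged 52.1 ± 1.95 CPM in TAM CM, 53.0 ± 2.54 CPM in M1 CM, 49.1 ± 1.46 CPM in M2 CM and 49.3 ± 3.95 CPM in M0 CM. Derl3 was near the lower limit of this depth, with 37, 21 and 28 counts in TAM CM, 9, 5 and 8 in M1 CM, 4, 10 and 6 in M2 CM, and 10, 4 and 11 in M0 CM. Its TAM CM libraries lay above all others (3.69-fold, log2 1.88, SE 0.41, adjusted p = 6.04e-05). In fits of just the compared groups it passed the filter on low counts only where TAM CM was included. The filter thus kept Derl3 through the medium where it was high, and no support is drawn from its test. It is among the members counted as higher, and as at least 2-fold higher, in TAM CM. Edem1, a lectin-like protein that marks glycoproteins for degradation, fell in TAM CM and M1 CM (log2 -0.21 and -0.19), and Os9, another lectin of this pathway, rose in both (log2 0.27 and 0.33).

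Of the other 3 members, Wfs1, which encodes wolframin, an ER membrane protein, moved most. It had 60.8, 65.8 and 64.9 CPM in TAM CM, 16.8, 18.7 and 16.6 CPM in M1 CM, 12.2, 11.4 and 10.7 CPM in M2 CM, and 12.5, 13.0 and 13.2 CPM in M0 CM. It rose 4.95-fold in TAM CM (log2 2.31, SE 0.07, adjusted p = 9.96e-33) and 1.34-fold in M1 CM, while its M2 CM libraries lay just below those of M0 CM without passing the test (adjusted p = 0.100). Sec61a1, the pore of the translocon through which new proteins enter the ER, rose 1.15-fold in TAM CM and 1.13-fold in M2 CM and fell in M1 CM (log2 -0.14). Sec61b, a smaller translocon subunit, averaged 96.4 ± 0.776 CPM in TAM CM and 94.1 ± 4.42 CPM in M0 CM and passed no test against M0 CM.

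Grouped by the sensor arm for which each gene is best known, which is a rough assignment since ATF6 and XBP1 share targets, the counts were as follows. The 12 ATF6-led genes gave 8 higher and 4 lower in TAM CM, 2 higher and 7 lower in M1 CM, and 10 higher and 0 lower in M2 CM, with median log2 fold changes of 0.20, -0.14 and 0.22. The 12 genes led by IRE1 and XBP1 gave 7 higher and 2 lower in TAM CM (median 0.35), 5 higher and 4 lower in M1 CM (median 0.01), and 5 higher and 1 lower in M2 CM (median 0.02). The 7 higher in TAM CM and the medians include Derl3, which passed the filter on low counts only through TAM CM. The 3 genes of the PERK-eIF2alpha arm gave 2 higher and 1 lower in TAM CM and in M1 CM, and 2 higher and 0 lower in M2 CM. The 6 genes of both arms or none gave 2 higher and 4 lower in TAM CM, 2 higher and 3 lower in M1 CM, and 4 higher and 0 lower in M2 CM. Of all genes, 35.1% were higher and 34.9% lower in TAM CM, 27.7% and 25.6% in M1 CM, and 21.0% and 18.5% in M2 CM. Within the ATF6-led genes of TAM CM, log2 fold changes ran from -0.29 for Pdia6 to 2.45 for Herpud1, so the counts hide a wide spread.

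The members with an ER stress response element did not share 1 direction. Of the 11 with ERSE or ERSE-II, 5 rose and 5 fell in TAM CM, 2 rose and 7 fell in M1 CM, and 9 rose and 0 fell in M2 CM, with medians of 0.05, -0.18 and 0.19. Of the 16 whose window held neither, 9 rose and 5 fell in TAM CM, 6 rose and 5 fell in M1 CM, and 6 rose and 1 fell in M2 CM, with medians of 0.21, -0.00 and 0.03. Over all genes, 35.1% rose and 34.9% fell in TAM CM, 27.7% and 25.6% in M1 CM, and 21.0% and 18.5% in M2 CM. Counted so, the 11 split evenly in TAM CM, though the rises of Derl3 and Calr are uncertain. In TAM CM the risers with an element were Hspa5, Herpud1, Derl3, Canx and Calr, and those that fell were Hsp90b1, Dnajb11, Dnajc3, Creld2 and Pdia6. Derl3 passed the filter on low counts only through TAM CM, so no support is drawn from its rise. The direction of Calr rests on the scaling, at log2 0.08 with TMM and -0.02 with library sizes alone.

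Compared directly, TAM CM against M1 CM gave 22 members higher and 3 lower, P4hb, Eif2ak3 and Sdf2l1, with a median log2 fold change of 0.28. The test called 67.2% of all genes there, 32.8% higher and 34.4% lower. A fold of at least 2 was reached upwards by 10 members (5.73% of all genes) and downwards by 0 (9.33%), and 26 members did not overlap (69.5%). Against M2 CM, TAM CM gave 15 members higher and 13 lower (median 0.03), with 68.4% of all genes called, 34.3% higher and 34.1% lower. Again 10 members were at least 2-fold higher (8.97%) and 0 at least 2-fold lower (8.38%), and 29 did not overlap (71.3%). In both comparisons Derl3 is counted as at least 2-fold higher and as not overlapping. It passed the filter on low counts only through TAM CM. Hspa5 was 3.80-fold higher in TAM CM than in M1 CM and 2.40-fold higher than in M2 CM. In M2 CM against M1 CM, 19 members were higher and 8 lower (median 0.19), with 56.2% of all genes called, 27.8% higher and 28.4% lower. Ppp1r15a was the 1 member at least 2-fold lower (6.74%), 0 were at least 2-fold higher (2.23%), and 27 did not overlap (59.8%). The 8 lower in M2 CM were Ppp1r15a, Dnajb9, Wfs1, Herpud1, Os9, Ern1, Atf6 and Derl1. The 19 higher included 10 of 11 chaperones, among them Calr (log2 0.69), Hsp90b1 (log2 0.68), Hspa5 (log2 0.66) and Dnajc3 (log2 0.63).

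Among the 33 members, the most abundant mRNA per kilobase of exon in TAM CM was Hspa5, at 674 CPM per kilobase, followed by Calr at 329 and P4hb at 276. In M0 CM their order was P4hb at 431, Calr at 312 and Pdia3 at 256, with Hspa5 at 195. Derl3 was the lowest of the 33 in the mean over media. These levels set genes side by side by length only, with exon lengths from GENCODE M21.

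Genes of neighbouring pathways were read from separate lists. Beside their counts, 35.1% of all genes rose and 34.9% fell in TAM CM, 27.7% and 25.6% in M1 CM, and 21.0% and 18.5% in M2 CM. In a list of Atf4 and its targets outside the 33, 9 genes were tested. In TAM CM 9 of 9 rose (median log2 3.33) and in M1 CM 9 of 9 (median 1.70), and in M2 CM 7 rose and 1, Nupr1, fell (median 0.39). Whether PERK had a part in these changes was not tested. Atf4 averaged 1313 ± 20.0 CPM in TAM CM, 899 ± 67.0 CPM in M1 CM, 484 ± 6.28 CPM in M2 CM and 405 ± 14.2 CPM in M0 CM. Asns, the asparagine synthetase gene and an ATF4 target, averaged 523 ± 13.3, 268 ± 16.5 and 120.4 ± 2.87 CPM in TAM CM, M1 CM and M2 CM, against 85.7 ± 0.501 CPM in M0 CM. By group means, Ppp1r15a kept the same order of media as Atf4 and Asns, and so did Ern1, Atf6, Herpud1 and Derl1. For Herpud1 the M2 CM and M0 CM libraries overlapped (log2 0.05), so their order is not resolved. The small rises of Atf6 and Derl1 in M2 CM were lost in several alternative runs.

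Of 19 other folding genes tested, 9 rose and 8 fell in TAM CM (median log2 0.01), 3 rose and 7 fell in M1 CM, and 6 rose and 2 fell in M2 CM. Fkbp11, a prolyl isomerase, rose in TAM CM (log2 0.75) and Erp29, a folding factor, fell (log2 -0.70). The 2 ends of this list in TAM CM, named after their values were seen, were Ero1a, an oxidase that feeds disulfide formation, at log2 2.68 and Fkbp14, a prolyl isomerase, at log2 -1.13. Uggt1, the sensor enzyme that returns unfolded glycoproteins to calnexin, rose in M1 CM (log2 0.65). Of 17 other degradation genes, 7 rose and 5 fell in TAM CM, 7 rose and 2 fell in M1 CM, and 3 rose and 1 fell in M2 CM. Ube2g2, a ubiquitin-conjugating enzyme of this pathway, rose in TAM CM (log2 1.41) while Vcp, the ATPase that pulls substrates from the membrane, fell (log2 -0.64). Of 16 other translocation and signal peptide genes, 11 rose and 2 fell in TAM CM, 2 rose and 4 fell in M1 CM, and 10 rose and 0 fell in M2 CM. Srprb, a subunit of the signal recognition particle receptor, rose in TAM CM (log2 0.60). Among 5 genes that process ATF6 or resemble it, 2 rose and 1 fell in TAM CM, 3 rose and 2 fell in M1 CM, and 2 rose and 1 fell in M2 CM. Creb3l2, a membrane-bound transcription factor related to ATF6, fell in all 3, with log2 fold changes of -1.90 in TAM CM, -0.72 in M1 CM and -0.78 in M2 CM.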

How the data were processed

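Per the labels' protocols, Trizol was used for RNA and an Illumina protocol for the mRNA libraries. The deposited table holds raw read counts per Ensembl gene for 12 libraries, with no scaling. The submitters' processing notes name HISAT2 2.0 and mm10. The sources used here do not give the counting tool, the annotation or the strand setting. Libraries were grouped by title, and the third M2 CM library, labelled a melanoma, was kept.

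Identifiers were matched to GENCODE M21 (GRCm38), which named 55227 of 55487 genes. Ero1a and Ero1b were matched as Ero1l and Ero1lb. The analysis used edgeR 4.0.16 under R 4.3.3, with filterByExpr on the groups, TMM scaling, and 1 robust glmQLFit over all 12 libraries with a mean for each group. Pairs of groups were tested with glmQLFTest, adjusted by Benjamini-Hochberg over 14509 genes at a threshold of 0.05. The biological coefficient of variation was 3.65%, and the steps were tested on simulated counts. No libraries of a group held the same counts within sampling noise, with a chi-square over its degrees of freedom of 1.99 to 5.02 per pair. At this depth, counts near those of Derl3 give wide errors, and the other members rest on far more counts. The p-values and standard errors cover counting error and the spread between libraries.

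The genes, their roles, arms and the neighbouring lists were chosen with earlier results of these data known. All 33 members are accounted for. Values per library are given for sensors and effectors, Hspa5, and members past the threshold whose highest and lowest group means differ by at least 1.5-fold. Genes of the neighbouring lists were named from those with the smallest p in edgeR's test of TAM CM or M1 CM against M0 CM. Not every gene so picked is named, and Ero1a, Fkbp14 and Nupr1 were named outside that rule. Alternatives were DESeq2 1.42.0, DESeq2 size factors, library sizes alone, fits of just the compared groups, no filter or 1 CPM in 3 libraries as the filter, replicate number as a term, and each library left out in turn.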

Additional observations from a re-analysis of the deposited data

How the results depend on the processing

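The numbers of members called stayed within 1.5 times of the values above in every alternative run. Over settings other than leaving out a library they ran from 25 to 27 in M1 CM, 18 to 22 in M2 CM and 28 to 30 in TAM CM, each against M0 CM. With each library left out in turn they ran from 25 to 27 in M1 CM, 19 to 21 in M2 CM and 29 to 30 in TAM CM. For all genes these ranges were 7117 to 7414, 4999 to 5134 and 9801 to 9834. Leaving out a library gave 24 to 25 members for TAM CM against M1 CM, 28 to 29 for TAM CM against M2 CM and 25 to 28 for M2 CM against M1 CM. Of 158 pairs of a member and a comparison past the threshold, 145 stayed past it in every alternative run, 13 missed it in at least 1, and 1 turned direction: Calr in TAM CM against M0 CM, at -0.02 with library sizes alone (adjusted p = 0.567). The pairs that missed it in TAM CM against M1 CM were those of Sec61b, and in M2 CM against M1 CM those of Eif2ak3, Xbp1 and Sec61b. Library sizes alone moved the median of all genes by at most 0.09 on the log2 scale, to -0.09 in TAM CM against M0 CM, and gave 9 members higher and 18 lower in M1 CM, 16 and 2 in M2 CM and 17 and 11 in TAM CM. Of 40 pairs that did not pass, 10 passed in some alternative. Replicate numbers did not pair the libraries: deviations from group means correlated at -0.0289 to 0.0507 for the same number and -0.0516 to 0.0515 for different numbers. With the replicate number as a block, 26, 22 and 30 members were called in M1 CM, M2 CM and TAM CM against M0 CM, as without it. Derl3 did not pass a filter of 1 CPM in 3 libraries, so that setting gives no value for it. Depth limits Derl3, and total counts do not show Xbp1 splicing.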
